A study of Homo sapiens with 9 samples.

Results

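SHISA2, SLC37A2, TMEM156, NEGR1, VIPR1 and PSG1 are 6 of the 63187 genes in the count table, and were chosen by their own values, because their level was higher in EC than in PG/VG in each of the 3 batches. That contrast therefore describes them and cannot test them. The cells were BEAS-2B, an immortalized human bronchial epithelial cell line. Control cultures were untreated, PG/VG cultures received the aerosol condensate of the carrier alone (propylene glycol with vegetable glycerine), and EC cultures received the condensate of a Virginia tobacco flavored liquid holding 18 mg/mL nicotine. Exposure was to 2% condensate for 24 h, and each condition had 3 libraries of poly(A) RNA, numbered 2, 3 and 4, where the number is also the batch. The labels name nicotine and flavor for EC only, so the effects of these cannot be told apart. All libraries come from 1 cell line.

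The 6 genes belong to different pathways. SHISA2 belongs to a family of membrane proteins known to hold Frizzled and FGF receptors back in the endoplasmic reticulum, which dampens Wnt and FGF signaling. SLC37A2 exchanges glucose-6-phosphate for phosphate across the endoplasmic reticulum membrane, and VIPR1 encodes the VPAC1 receptor, through which the neuropeptide VIP raises cyclic AMP in airway and gut epithelium. NEGR1 is a lipid-anchored adhesion protein of the IgLON family, best known from neurons. PSG1 is a secreted glycoprotein of the placenta related to the CEACAM adhesion proteins, and TMEM156 is a membrane protein whose role is not well described.

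Counts assigned to genes ranged from 16168260 to 24917838 per library, and 16030 genes were tested, those reaching 10 counts in 3 or more libraries. All 6 genes passed this filter, and each also had at least 10 counts in all 6 libraries outside EC, so none was kept through EC alone. The batch 4 libraries stood apart from the others on the first principal component, which held 46.6% of the variance. Of 13 airway epithelial markers, 6 reached a mean of 1 CPM (counts scaled to library size with edgeR's TMM factors), with KRT8 at 992, KRT7 at 755 and KRT18 at 472 CPM. The defining epithelial cadherin CDH1 was at 0.796 CPM and the basal cell marker KRT5 at 0.0157 CPM. Of 6 mesenchymal markers, 5 reached 1 CPM, with VIM at 958 and FN1 at 4145 CPM, while COL1A2 was at 0.0776 CPM. In bulk RNA, a change in the share of cells that express a gene and a change in RNA per cell cannot be told apart.

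In GENCODE release 44 on GRCh38, SHISA2 (ENSG00000180730) lies on chromosome 13 from 26044597 to 26052016 on the minus strand, SLC37A2 (ENSG00000134955) on chromosome 11 from 125063302 to 125090516 on the plus strand, and TMEM156 (ENSG00000121895) on chromosome 4 from 38966744 to 39032922 on the minus strand. NEGR1 (ENSG00000172260) lies on chromosome 1 from 71395943 to 72282539 on the minus strand, VIPR1 (ENSG00000114812) on chromosome 3 from 42489299 to 42537573 on the plus strand, and PSG1 (ENSG00000231924) on chromosome 19 from 42866464 to 42879822 on the minus strand. All 6 are protein-coding genes on different chromosomes. The strand setting of the authors' counting is not given in the sources used here. Of the exon length, 11.4% of VIPR1 overlaps the antisense gene VIPR1-AS1, which had 0 to 10 counts per library, and 7.46% of NEGR1 overlaps ZRANB2-DT on the opposite strand, with 0 to 8 counts. The other 4 genes overlap no annotated exon of another gene.

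RefSeq upstream sequences (GRCh38.p14) were at hand for 3 of the 6 genes, SHISA2, TMEM156 and VIPR1, the last with 2 start sites. Which genes are shown was set by the sequences at hand alone. These genes moved together across the libraries, as described below, although this shares the EC step that chose them. A shared regulation was not tested. Each line holds the 250 bases before the start site, 5′ to 3′ on the strand of the gene, with motif matches in capitals.
SHISA2, chr13:26052017-26052266, minus strand: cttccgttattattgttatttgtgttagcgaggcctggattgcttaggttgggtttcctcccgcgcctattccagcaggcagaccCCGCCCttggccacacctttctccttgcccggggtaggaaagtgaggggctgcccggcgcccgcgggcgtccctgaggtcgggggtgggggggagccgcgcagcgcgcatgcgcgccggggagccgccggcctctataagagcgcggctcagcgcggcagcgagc
TMEM156, chr4:39032410-39032659, minus strand: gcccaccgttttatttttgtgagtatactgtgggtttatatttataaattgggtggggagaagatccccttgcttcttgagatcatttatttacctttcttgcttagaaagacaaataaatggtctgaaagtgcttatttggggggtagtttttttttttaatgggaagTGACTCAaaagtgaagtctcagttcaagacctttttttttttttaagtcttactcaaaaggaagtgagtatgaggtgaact
VIPR1 upstream start, chr3:42489049-42489298, plus strand: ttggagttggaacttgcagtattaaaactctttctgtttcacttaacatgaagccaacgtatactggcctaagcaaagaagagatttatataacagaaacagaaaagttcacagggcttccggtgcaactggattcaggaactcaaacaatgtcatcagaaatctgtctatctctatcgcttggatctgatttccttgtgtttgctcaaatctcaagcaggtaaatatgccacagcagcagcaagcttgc
VIPR1 downstream start, chr3:42502393-42502642, plus strand: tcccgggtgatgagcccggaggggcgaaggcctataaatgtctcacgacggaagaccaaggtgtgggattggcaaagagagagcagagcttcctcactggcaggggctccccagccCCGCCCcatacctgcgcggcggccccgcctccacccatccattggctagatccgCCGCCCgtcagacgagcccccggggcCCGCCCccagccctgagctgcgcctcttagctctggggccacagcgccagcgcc

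Searched on both strands were the core of the xenobiotic response element (GCGTG), the AP-1 site (TGANTCA), the E-box (CACGTG) and the GC box (GGGCGG), none of which contains another, although GCGTG and CACGTG can overlap. The SHISA2 window held 1 GC box, the downstream VIPR1 window 3 GC boxes and the TMEM156 window 1 AP-1 site. Of 35116 windows of the same length in the table, 42.6% held a GC box, 6.57% an AP-1 site, 6.34% an E-box and 32.2% the GCGTG core. No E-box or GCGTG letters were present in the 4 windows. The windows differed in base composition, with 67.6% G and C for SHISA2 and 69.2% for the downstream VIPR1 start, but 34.8% for TMEM156 and 40.4% for the upstream VIPR1 start, around a median of 58% over the table. The TMEM156 window (39032410 to 39032659) lies inside the GENCODE span of the gene, which reaches 39032922, so its start is not the outermost one annotated. The counts do not tell which VIPR1 or TMEM156 start was used.

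SHISA2 was at 28.7, 27.9 and 53.0 CPM in control replicates 2, 3 and 4, 25.9, 25.4 and 54.3 CPM in PG/VG, and 83.2, 78.9 and 114 CPM in EC. Every EC library lay above every other library, while PG/VG and the control overlapped, PG/VG being the lower in 2 batches and the higher in 1. The means in CPM were 36.5 ± 14.2 (control), 35.2 ± 16.6 (PG/VG) and 92.0 ± 19.1 for EC (SD, n = 3 each), where the SD holds the batch difference. With the batch in the model, the log2 fold change (LFC) was 1.45 in EC vs. PG/VG (SE 0.097), 1.38 in EC vs. control (SE 0.099) and −0.07 in PG/VG vs. control (SE 0.10), given as values because these contrasts are, or share libraries with, the one that chose the gene. The rise over PG/VG was thus 2.74-fold.

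SLC37A2 was at 26.7, 29.2 and 67.5 CPM in untreated cells, 26.6, 27.5 and 69.4 after PG/VG and 47.7, 49.8 and 89.7 after EC. EC was highest within each batch, but the batch 4 control and PG/VG libraries exceeded the EC libraries of batches 2 and 3, so the groups overlapped. The LFC was 0.68 in EC vs. PG/VG (SE 0.091), 0.67 in EC vs. control (SE 0.092) and −0.01 in PG/VG vs. control (SE 0.094). TMEM156 was at 25.3, 22.1 and 45.6 CPM in untreated cells, 29.9, 25.3 and 52.4 after PG/VG and 46.1, 44.2 and 69.2 after EC. It was the only one of the 6 genes with PG/VG above the control in all 3 batches, by 0.24, 0.19 and 0.20 on the log2 scale. Its LFC was 0.60 in EC vs. PG/VG (SE 0.086), 0.82 in EC vs. control (SE 0.088) and 0.21 in PG/VG vs. control (SE 0.090), and its groups overlapped too, since the batch 4 PG/VG library exceeded the EC libraries of batches 2 and 3 and the batch 4 control exceeded that of batch 3.

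VIPR1, the VIP receptor gene, was at 1.72, 2.35 and 6.92 CPM in untreated cells, 3.65, 2.9 and 6.43 after PG/VG and 8.13, 7.58 and 12.1 after EC. Each EC library exceeded all others. The counts behind these values were 27 to 123 in the control, 53 to 150 in PG/VG and 178 to 243 in EC. The LFC was 1.14 in EC vs. PG/VG (SE 0.19), 1.42 in EC vs. control (SE 0.20) and 0.28 in PG/VG vs. control (SE 0.22). PG/VG differed from the control by 1.09, 0.30 and −0.11 on the log2 scale in batches 2, 3 and 4, and the fitted value was 0.02 without control replicate 2 and 0.77 without control replicate 4.

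NEGR1 stood at 4.51, 5.57 and 3.43 CPM in untreated cells, 3.40, 3.67 and 3.47 after PG/VG and 8.25, 7.41 and 11.9 after EC. EC did not overlap with either group. Unlike the 4 genes above, NEGR1 was no higher in batch 4 of the control, and its largest EC level came from that batch. The LFC was 1.38 in EC vs. PG/VG (SE 0.19), 1.02 in EC vs. control (SE 0.19) and −0.36 in PG/VG vs. control (SE 0.21). The summed level of 9 neuron markers was 7.14 to 8.30 CPM in EC against 5.40 to 5.68 CPM in the control and 5.53 to 6.13 CPM in PG/VG. Of the 5 that could be tested, 0 were called in EC vs. PG/VG, where 0.855% of all genes passed (edgeR). An unadjusted p under 0.05 was reached by 2 of the 5 and by 2064 of the 16030 genes tested (edgeR). The LFC values of the 5 ran from −0.11 (SYT1) to 0.91 (SNAP25). Of the 9 markers 3 reached 1 CPM, STMN2 was at 0.0143 and GAP43 at 0.00477 CPM, and their part in the NEGR1 level was not tested.

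Of the 6 genes, PSG1 had the largest fold change in EC vs. PG/VG and the fewest counts. It was at 1.65, 1.24 and 0.788 CPM in untreated cells, 0.492, 1.37 and 0.429 after PG/VG and 3.13, 2.64 and 1.24 after EC. The EC library of batch 4 lay below the PG/VG library of batch 3, so the groups overlapped. Counts were 10 to 25 in PG/VG and 25 to 79 in EC. The LFC was 1.66 in EC vs. PG/VG (SE 0.32), 0.91 in EC vs. control (SE 0.30) and −0.75 in PG/VG vs. control (SE 0.36). Without PG/VG replicate 2 the fitted value in EC vs. PG/VG was 1.16, and without PG/VG replicate 3 it was 2.23.

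**Figure D1:**
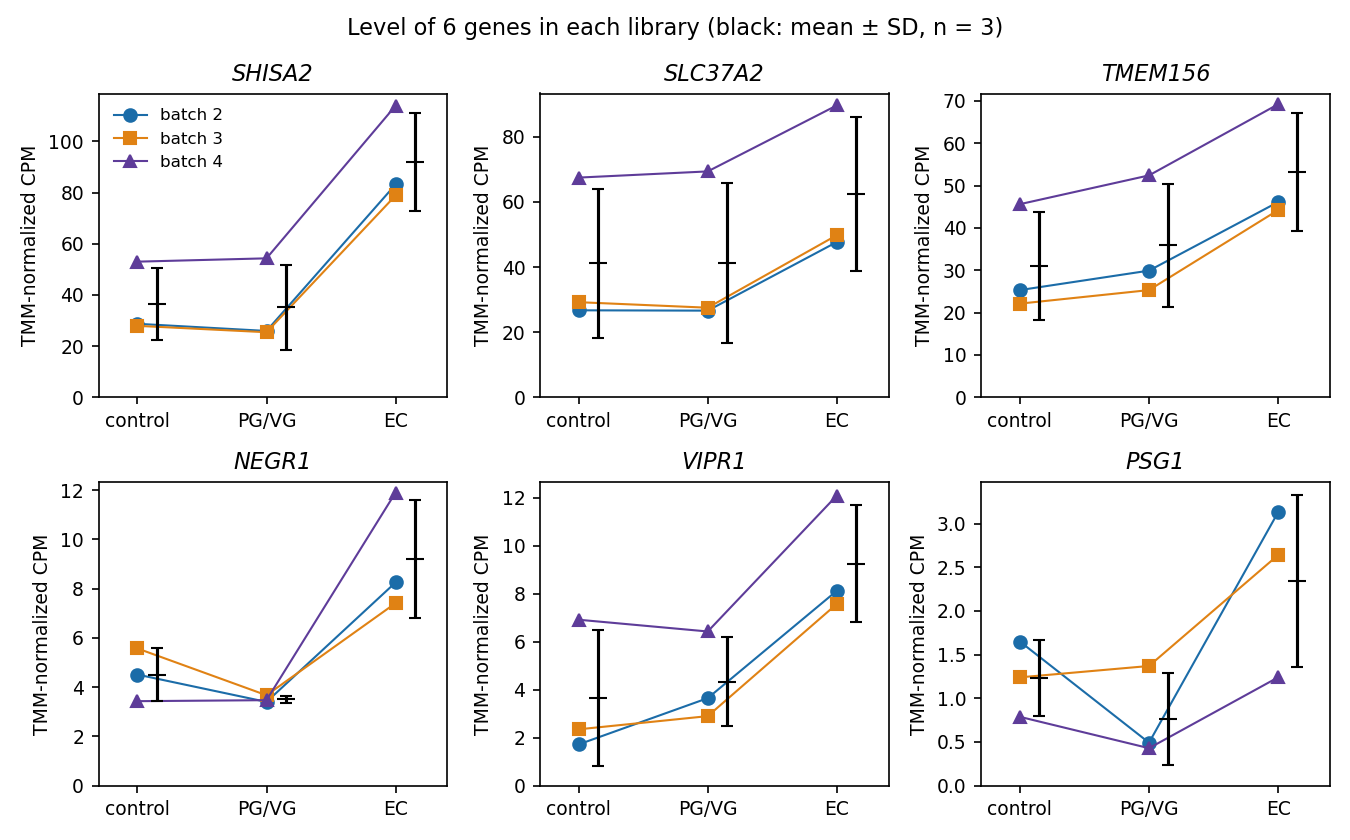
TMM-normalized CPM of each gene (vertical axes from 0) in control, PG/VG and EC, with 1 colored line per batch and the mean ± SD of 3 libraries in black. EC is the highest point of every line, for example 83.2, 78.9 and 114 CPM for SHISA2, and the batch 4 line runs above the others for SHISA2, SLC37A2, TMEM156 and VIPR1.

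The rule by itself was not rare. Of the genes tested, 2687 were higher in EC than in PG/VG in all 3 batches, which is 16.8%. The smallest of the 3 within-batch differences was 1.07 for SHISA2, 1.01 for NEGR1, 0.95 for PSG1, 0.91 for VIPR1, 0.40 for TMEM156 and 0.37 for SLC37A2 on the log2 scale, against a median of 0.09 over the genes that met the rule. The genes nearest to the threshold of 0 were TOR1AIP1 just inside, with a smallest difference of 1.9e-05, and TRIM21 just outside, with −6.32e-06. At least the value of SLC37A2 was reached by 268 genes. All 3 EC libraries lay above all 3 PG/VG libraries for 3 of the 6 genes (SHISA2, NEGR1 and VIPR1) and for 4.54% of all genes, and since the rule used this contrast nothing is read from that count.

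**Figure D2:**
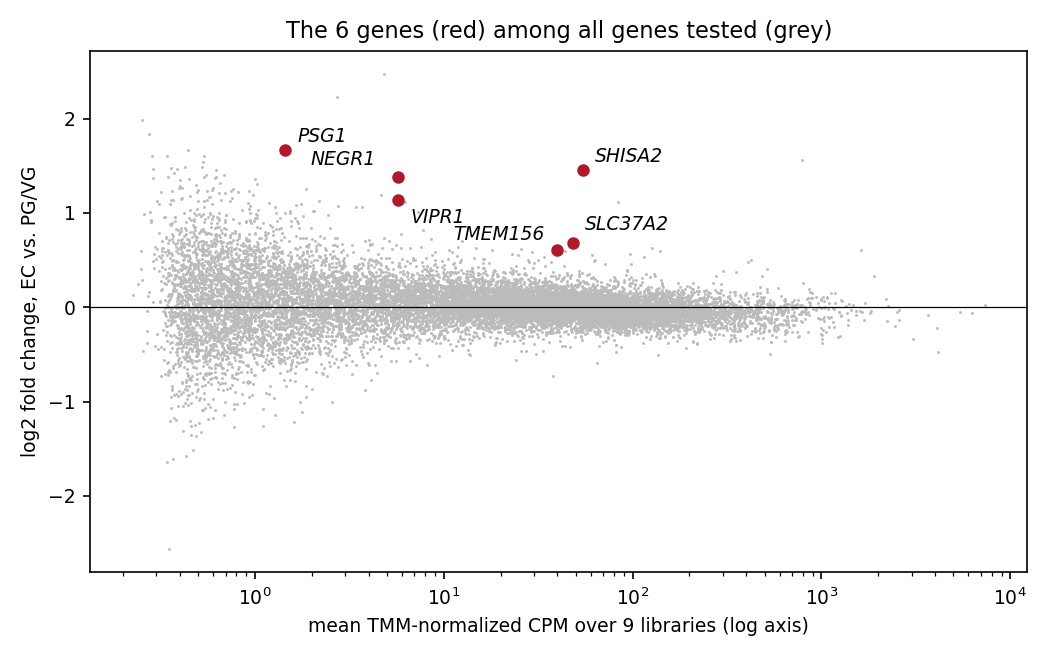
Fitted log2 fold change of EC vs. PG/VG (vertical axis) against the mean TMM-normalized CPM over 9 libraries (horizontal log axis) for all 16030 genes tested (grey) and the 6 genes (red). SHISA2, at 1.45, stands out among genes of its level, while TMEM156 (0.60) and SLC37A2 (0.68) lie closer to the grey points and PSG1 (1.66) is at the low end of expression, where the grey points spread widely.

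EC was above the control in all 3 batches for all 6 genes, but these are the EC libraries that chose the genes. The share over all genes was not counted, so nothing is read from this count. For SHISA2 and SLC37A2 the EC value was nearly the same against either reference, at 1.38 and 1.45 for SHISA2 and at 0.67 and 0.68 for SLC37A2. TMEM156 and VIPR1 had the larger value against the control, and NEGR1 and PSG1 the larger value against PG/VG. The comparisons share libraries, so the values are not independent of each other.

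**Figure D3:**
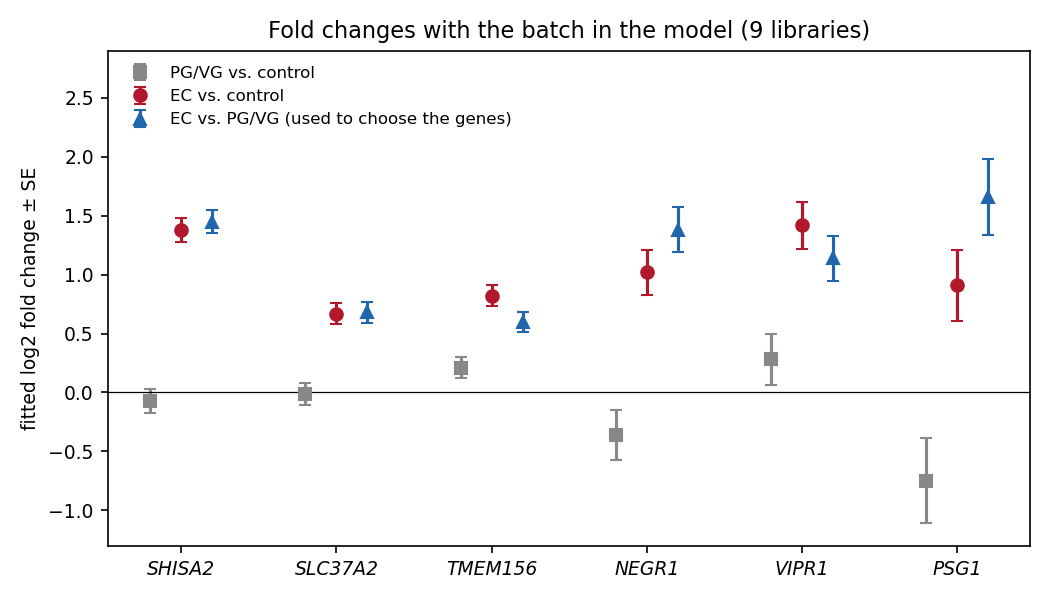
Fitted log2 fold change ± SE of each gene for PG/VG vs. control (grey squares), EC vs. control (red circles) and EC vs. PG/VG (blue triangles), with the batch in the model of 9 libraries. PG/VG lies close to 0 for SHISA2 (−0.07) and SLC37A2 (−0.01), above 0 for TMEM156 (0.21) and VIPR1 (0.28), and below 0 for NEGR1 (−0.36) and PSG1 (−0.75).

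The mean of EC and PG/VG against the control is another contrast than the one the rule used, but it holds the same EC libraries. Where PG/VG lay near the control, as for SHISA2 and SLC37A2, its value is for the most part the EC step that chose the gene. EC also made up the larger part for TMEM156 (LFC against the control 0.82 in EC, 0.21 in PG/VG) and VIPR1 (1.42 and 0.28). This mean therefore gives no independent support for any of the 6 genes. It was higher than the control for 4 of the 6 genes and for 6.71% of all genes by the same test, and nothing is read from that count. The test was the quasi-likelihood test of edgeR, Benjamini-Hochberg adjusted over all genes, here and below. SHISA2 had an LFC of 0.65 (SE 0.089, adjusted p = 8.46e-05, edgeR), TMEM156 of 0.51 (SE 0.079, adjusted p = 0.000199, edgeR), VIPR1 of 0.85 (SE 0.19, adjusted p = 0.00479, edgeR) and SLC37A2 of 0.33 (SE 0.082, adjusted p = 0.0105, edgeR). NEGR1 did not pass, with 0.33 (SE 0.18, adjusted p = 0.246, edgeR), nor did PSG1, with 0.08 (SE 0.30, adjusted p = 0.899, edgeR). This mean does not say that both condensates raised a gene, since the separate PG/VG values of SHISA2 and SLC37A2 were near 0. SHISA2, TMEM156 and VIPR1 passed in all 9 fits that left out 1 library, and VIPR1 moved from 0.85 to 1.33 without control replicate 4. SLC37A2 lost its call without control replicate 2 (adjusted p = 0.0803 in edgeR), control replicate 3 (0.0671) or PG/VG replicate 4 (0.0599). The same 4 genes passed without batch 4, whereas without the batch in the model 0 of the 6 passed and 0 reached an unadjusted p under 0.05 (edgeR).

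The batch, whose differences the rule did not use, changed 5 of the 6 genes, against 34.3% of all genes. Relative to batch 2, batch 4 was higher by an LFC of 1.21 for SLC37A2 (SE 0.091), 0.98 for VIPR1 (SE 0.19), 0.79 for SHISA2 (SE 0.098) and 0.75 for TMEM156 (SE 0.087), and lower for PSG1 by −1.02 (SE 0.33). The adjusted p of the test over the 3 batches was 1.7e-10 for SLC37A2, 2.14e-08 for TMEM156, 4.35e-07 for SHISA2, 0.000172 for VIPR1 and 0.0205 for PSG1 (edgeR). For NEGR1 it was 0.811, with 0.15 for batch 4 (SE 0.19). Batch 3 differed from batch 2 by −0.16 to 0.10 over the 6 genes, and without batch 4 the test called 0 of them, with 0 at an unadjusted p under 0.05 (edgeR). PSG1 lost its call without PG/VG replicate 4 (adjusted p = 0.078, edgeR) or EC replicate 4 (0.23), and under DESeq2 (0.0595).

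For the 4 genes that were higher in batch 4, the step from PG/VG to EC was smallest there on the log2 scale, while in CPM it differed between batches by ratios of 1.1 to 1.25. SHISA2 differed from PG/VG by 1.68, 1.64 and 1.07 on the log2 scale in batches 2, 3 and 4, and by 57.3, 53.5 and 59.6 CPM. SLC37A2 differed by 0.84, 0.86 and 0.37 on the log2 scale and by 21.1, 22.3 and 20.3 CPM. The highest of the 3 CPM differences was 1.11 times the lowest for SHISA2 and 1.1 times for SLC37A2, against ratios of 1.57 and 2.32 for the log2 differences. TMEM156 differed by 0.62, 0.81 and 0.40 on the log2 scale and by 16.2, 18.9 and 16.8 CPM, with ratios of 2.01 and 1.17. VIPR1 differed by 1.16, 1.39 and 0.91 on the log2 scale and by 4.49, 4.68 and 5.62 CPM, with ratios of 1.53 and 1.25, and its CPM step was largest in batch 4. NEGR1 went the other way, with 4.85, 3.74 and 8.43 CPM and its largest log2 difference, 1.78, in batch 4. PSG1 differed by 2.64, 1.27 and 0.811 CPM. With 1 library of each condition in a batch, a difference between batches in the size of the step has no replicate and was not tested.

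**Figure D4:**
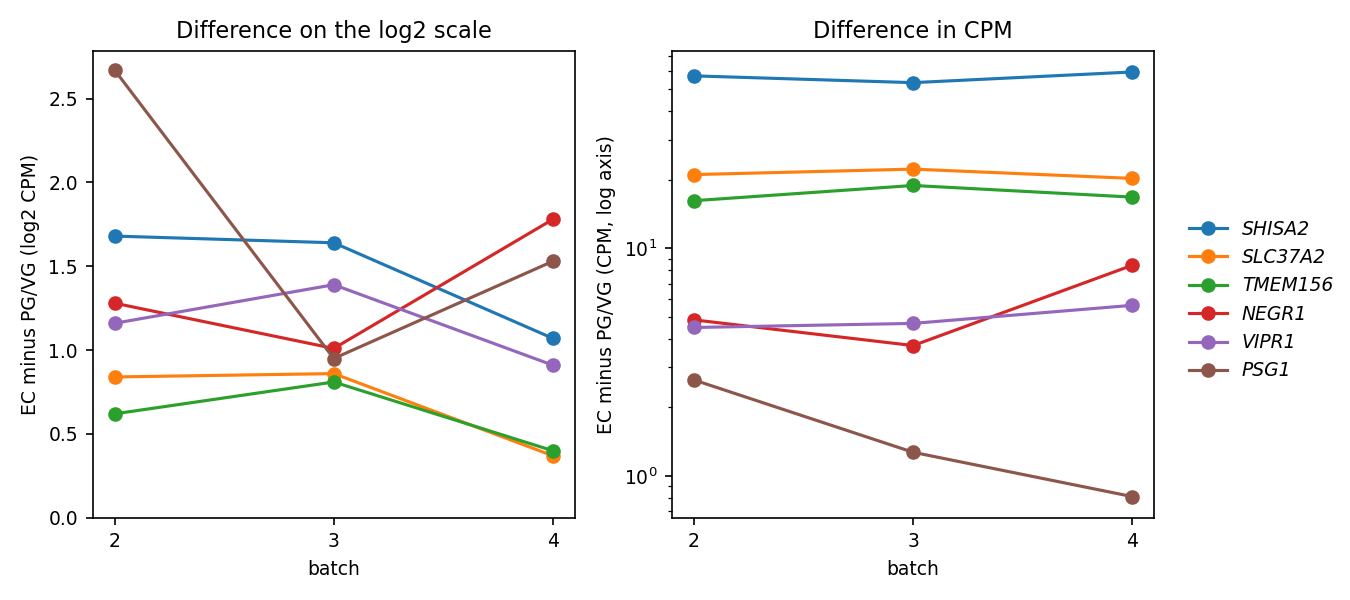
Difference of EC minus PG/VG in batches 2, 3 and 4 for each gene, on the log2 scale (left) and in TMM-normalized CPM (right, log axis), with lines joining the values of 1 gene. SHISA2 drops from 1.68 to 1.07 on the left but stays between 53.5 and 59.6 CPM on the right, and SLC37A2 and TMEM156 vary on the right by ratios of 1.1 and 1.17.

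Compared per kilobase of annotated exon, 3 of the genes were expressed well above the other 3. In the control the order was TMEM156 (12.1 ± 4.99 CPM per kb), SHISA2 (9.50 ± 3.70), SLC37A2 (6.49 ± 3.61), VIPR1 (0.496 ± 0.385), NEGR1 (0.341 ± 0.081) and PSG1 (0.247 ± 0.0871; SD, n = 3 each). Levels of SHISA2 (7.26 to 13.8) overlapped those of both neighbors in this order, and SLC37A2 stayed above VIPR1 in every library. TMEM156 exceeded SHISA2 within each control library and each PG/VG library. In EC this order was turned, with SHISA2 at 21.6, 20.5 and 29.6 CPM per kb and TMEM156 at 18.0, 17.2 and 27.0 CPM per kb in replicates 2, 3 and 4. VIPR1 and NEGR1 overlapped in the control, with 0.232 to 0.938 and 0.260 to 0.422 CPM per kb. They did not overlap in PG/VG, with 0.393 to 0.871 and 0.257 to 0.278, or in EC, with 1.03 to 1.63 and 0.561 to 0.901. PSG1 overlapped NEGR1 in the control (0.159 to 0.333) and in EC (0.250 to 0.632). In PG/VG it reached 0.276, above the lowest NEGR1 level of 0.257. The lengths cover every annotated exon, which no single transcript uses.

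After batch means were removed, log2 CPM over the 9 libraries gave Pearson correlations of 0.90 to 0.99 in the 6 pairs among SHISA2, SLC37A2, TMEM156 and VIPR1, and 0.575 to 0.854 in the 9 pairs with NEGR1 or PSG1. The points share libraries and the EC step that chose the genes, so these are descriptions. Among 13673 genes with a mean of at least 1 CPM, the 3 genes most like SHISA2 were SLC37A2 (r = 0.990), HMOX1 (0.989), the heme-degrading oxygenase, and TIPARP (0.989), a known target of the aryl hydrocarbon receptor. SLC37A2 was most like TIPARP (0.995), HMOX1 (0.992) and SHISA2 (0.990). Nearest to TMEM156 were MED24 (0.992), ALG6 (0.992) and CYP1B1 (0.991), a xenobiotic-metabolizing cytochrome P450. NEGR1 was most like CDKN1A (0.992), KRT17 (0.987) and PODXL2 (0.984), and VIPR1 was most like SECTM1 (0.993), SEMA4F (0.986) and BCL3 (0.985). PSG1 was nearest to SPESP1 (0.991), ENSG00000291156 (0.988) and MIEN1 (0.969). The correlation says nothing of size: TIPARP differed between EC and PG/VG by an LFC of 1.11 and MED24 by 0.09.

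The genes next to the 6 on the chromosome did not pass the threshold. The nearest tested gene on either side was taken, 12 in all. In EC vs. PG/VG, 0 were called by edgeR or by DESeq2, which gave no adjusted p for 4 of them. Over all genes edgeR called 0.855%, so nothing is read from that count. An unadjusted p under 0.05 was reached by 2064 of the 16030 genes tested and by 2 of the 12 (edgeR). These 2 were PSG2 (LFC 1.49, SE 0.47) and PSG3 (LFC 1.17, SE 0.42), on either side of PSG1, and the other 10 had an LFC between −0.04 and 0.36. RNF6, beside SHISA2, had an LFC of 0.05 (SE 0.077), and TMEM218, 3.87 kb from SLC37A2, had 0.12 (SE 0.10). KLHL5 beside TMEM156 had 0.12 (SE 0.069), ZRANB2 beside NEGR1 0.00 (SE 0.072) and SEC22C beside VIPR1 0.01 (SE 0.073).

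Families and partners of the 6 genes were followed in 10 lists, with 66 tested genes besides the 6. Where a list's most abundant genes are given, they are those with the highest CPM, not per length. In EC vs. PG/VG, 2 of the 66 were higher and 0 lower at an adjusted p under 0.05, where 0.555% of all genes passed as higher and 0.299% as lower. An unadjusted p under 0.05 was reached by 17 of the 66 and by 2064 of the 16030 genes tested (edgeR). DESeq2 called 2 of the 66, PSG5 among them. The genes that edgeR called were PSG5 and FZD3, and DESeq2 did not call FZD3. The median LFC of the 66 was 0.04, against 0.002 over all genes. In the mean of both condensates vs. control, 15 were higher and 3 lower, where 6.71% and 5.32% of all genes passed.

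PSG1 was not alone in its family. Of the other 9 PSG genes, 4 could be tested, and PSG5 was higher in EC than in PG/VG with an LFC of 1.19 (SE 0.21, adjusted p = 0.00735, edgeR). PSG5 was at 5.72, 6.32 and 1.69 CPM in untreated cells, 3.89, 2.63 and 1.54 after PG/VG and 9.01, 9.32 and 1.59 after EC, so EC was well above PG/VG in batches 2 and 3 and near it in batch 4. PSG2 (1.49), PSG3 (1.17) and PSG9 (0.76) had positive LFC values without passing, with adjusted p of 0.152, 0.204 and 0.429 in edgeR. The call of PSG5 held in 5 of 9 fits without 1 library. It was lost without PG/VG replicate 2, PG/VG replicate 3, EC replicate 2 or EC replicate 3, with adjusted p from 0.065 to 0.0907 (edgeR). The PSG genes are near-identical copies and the authors discarded reads that map to more than 1 place, so how reads divide between them is uncertain. Of 12 trophoblast markers, 2 reached 1 CPM (PAPPA and HLA-G), GCM1, CSH1 and CSH2 had 0 counts in every library, and their summed level was 20.3 to 23.2 CPM in untreated cells, 20 to 24.5 after PG/VG and 17.8 to 22.5 after EC.

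**Figure D5:**
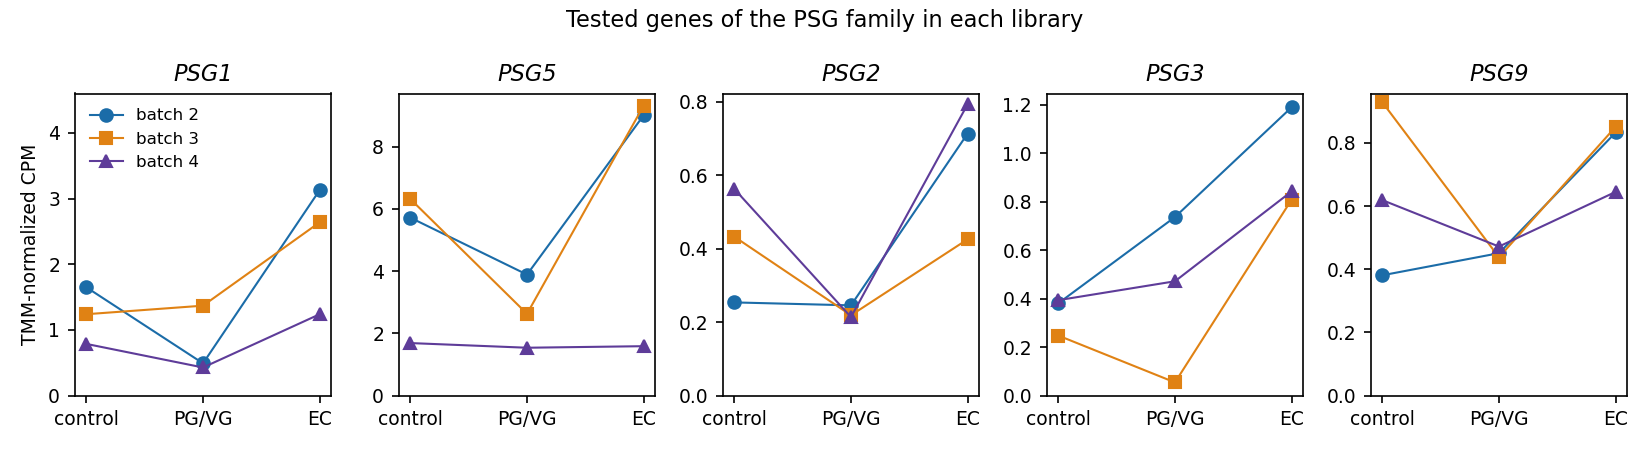
TMM-normalized CPM (vertical axes from 0, each with its own range) of PSG1 and the 4 other tested PSG genes in control, PG/VG and EC, with 1 line per batch. PSG5 rises to 9.01 and 9.32 CPM in EC in batches 2 and 3 and stays at 1.59 CPM in batch 4.

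In the related CEACAM family, CEACAM1 was higher in the mean of both condensates than in the control, with an LFC of 0.71 (SE 0.14, adjusted p = 0.00191, edgeR), while its LFC in EC vs. PG/VG was 0.01 (SE 0.14). The call was lost without control replicate 4 (adjusted p = 0.0898, edgeR). CEACAM19, the other member tested, had 0.02 against the control.

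Among the relatives of SHISA2, SHISAL1 rose in the mean of both condensates vs. control by an LFC of 0.60 (SE 0.092, adjusted p = 0.000191, edgeR). It was at 16.5, 16.8 and 18.5 CPM in untreated cells, 22.6, 21.5 and 24.3 after PG/VG and 26.2, 34.9 and 29.3 after EC, with no overlap between the 3 groups. Its LFC in EC vs. PG/VG, 0.39 (SE 0.098), missed the threshold (adjusted p = 0.0585, edgeR). SHISA5, the most abundant member at 205 CPM, and SHISA4, at 17.8 CPM, had LFC values of 0.16 and 0.29 in EC vs. PG/VG with adjusted p of 0.302 and 0.186 (edgeR).

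Of the Frizzled and FGF receptors, on which SHISA proteins act, and the Wnt co-receptors LRP5 and LRP6, 15 could be tested. FZD3, a Wnt receptor, was higher in EC than in PG/VG with an LFC of 0.52 (SE 0.12, adjusted p = 0.0463, edgeR). It was at 9.40, 8.30 and 6.64 CPM in untreated cells, 7.13, 7.11 and 5.53 after PG/VG and 9.88, 10.1 and 8.38 after EC. This call held in 2 of the 9 fits without 1 library, those without control replicate 2 or 4, and was lost under DESeq2 (adjusted p = 0.0726) and without batch 4 (0.159, edgeR). In the mean of both condensates vs. control, 7 of the 15 receptors rose and 0 fell, where 6.71% and 5.32% of all genes passed (edgeR). Of the 7, 6 rose by an LFC between 0.34 and 0.65. DESeq2 called 6 of the 15 in this contrast. FZD7 had 0.48 (SE 0.067, adjusted p = 8.25e-05, edgeR) and the Wnt co-receptor LRP5 0.47 (SE 0.064, adjusted p = 6.84e-05, edgeR), and both passed in all 9 fits without 1 library. FZD8 (0.58), FZD1 (0.34), FGFR3 (0.48) and FGFR4 (0.65) also passed, as did FZD6, the third most abundant of the list, with 0.19. FZD8 and FZD1 lost their calls without control replicate 2 or 3, FGFR3 without control replicate 2 or 4, PG/VG replicate 2 or EC replicate 4, and FGFR4 without control replicate 2 or 4, PG/VG replicate 2 or 3 or EC replicate 4. FZD6 passed in 1 of the 9 fits, that without EC replicate 2. FGFR1, the most abundant at 185 CPM, had 0.13 (adjusted p = 0.152, edgeR).

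The other SLC37 transporters moved less than SLC37A2 between EC and PG/VG. SLC37A1 had an LFC of 0.35 (SE 0.14, adjusted p = 0.256, edgeR), SLC37A4, the transporter of the glucose-6-phosphatase system, 0.19 (SE 0.11) and SLC37A3 0.02 (SE 0.084). In the mean of both condensates vs. control SLC37A1 rose by 0.46 (SE 0.13, adjusted p = 0.0226, edgeR), a call lost without any 1 of the control libraries, PG/VG replicate 2 or EC replicate 3. Of 9 tested enzymes that make or use glucose-6-phosphate, H6PD, the dehydrogenase of the endoplasmic reticulum lumen, rose by 0.40 in that contrast (SE 0.075, adjusted p = 0.00113, edgeR) and PGM2 fell by 0.24 (SE 0.062, adjusted p = 0.0133, edgeR). The call of PGM2 was lost without control replicate 2 or 3. GPI and HK1, the most abundant of those named here, had LFC values of −0.06 and −0.12 without passing, and G6PC3, the phosphatase expressed in these cells, 0.08. G6PC1 and G6PC2 had 0 counts in all libraries.

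VIPR1 was the only VIP or PACAP receptor that could be tested. VIPR2 had 0 to 3 counts per library and ADCYAP1R1 0 to 9. The ligand VIP had 0 counts in all 9 libraries, which allows up to 0.119 to 0.191 CPM per library (3 counts, counting error only), and ADCYAP1, the gene for PACAP, had 0 to 5 counts. RAMP1 and RAMP2, accessory proteins of such receptors, had LFC values of 0.34 and 1.0 in EC vs. PG/VG with adjusted p of 0.444 and 0.15 (edgeR). Among other receptors that raise cyclic AMP, ADORA2B, at 62.7 CPM, had an LFC of −0.13 in the mean of both condensates vs. control and PTGER4 of 0.11, without passing. Downstream, in the same contrast, the adenylyl cyclases ADCY6 (LFC 0.31, adjusted p = 0.00203, edgeR) and ADCY1 (0.34, adjusted p = 0.0282) and the protein kinase A subunit PRKAR2B (0.48, adjusted p = 0.044) rose, and the transcription factor ATF1 fell by 0.25 (adjusted p = 0.0196, edgeR). ADCY6 passed in all 9 fits without 1 library. ADCY1 passed in 3, those without PG/VG replicate 3 or 4 or EC replicate 2, and PRKAR2B in 2, those without PG/VG replicate 3 or EC replicate 2. ATF1 lost its call without control replicate 2 or 3 or PG/VG replicate 2. GNAS, PRKAR1A and PRKACA, the most abundant of these, had −0.03, −0.09 and 0.08.

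Of the IgLON relatives of NEGR1, only NTM could be tested. It fell in the mean of both condensates vs. control by 0.94 (SE 0.28, adjusted p = 0.0309, edgeR), from 1.08, 2.42 and 1.86 CPM in the control to 0.492, 0.766 and 1.12 CPM after PG/VG and 1.19, 0.894 and 1.04 after EC. The groups overlapped, and the call held in 3 of 9 fits without 1 library, those without control replicate 2, PG/VG replicate 4 or EC replicate 2. OPCML had 0 to 18 counts per library, LSAMP 0 to 5 and IGLON5 0 to 4.

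Some calls in the mean of both condensates vs. control were also lost under other settings. Under DESeq2 the adjusted p was 0.0527 for FGFR4, 0.0588 for ADCY1, 0.0591 for SLC37A1, 0.0688 for NTM and 0.114 for PRKAR2B. In edgeR the adjusted p was 0.0508 for FZD6 with RLE normalization, 0.0508 for ATF1 with library size as the only scaling and 0.0568 for PRKAR2B without the filter. Without batch 4 it ranged from 0.085 to 0.205 for FGFR4, NTM, SLC37A1, ADCY1, CEACAM1, FGFR3, PRKAR2B and FZD6 (edgeR).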

How the data were processed

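The authors filtered the reads (fastp), mapped them to GRCh38.p12 (STAR) and counted them on exons of the Ensembl annotation with featureCounts of Subread 2.0.4, ignoring multi-mapping and multi-overlapping reads. The deposited table holds raw counts of 63187 genes in 9 columns, all used. Of these genes, 62666 were found in GENCODE release 44. Samples were grouped by their labels, and same-numbered libraries were paired by batch, per the labels. The correlation of their deviations from the condition mean was 0.334 to 0.707 in 9 pairs. Between libraries of different number it was −0.539 to 0.426, so the ranges overlapped. Genes reaching 10 counts in 3 or more libraries were fitted in R 4.3.3 with edgeR 4.0.16 (TMM, quasi-likelihood, condition and batch as terms, threshold 0.05 after Benjamini-Hochberg adjustment). The SE is the LFC over the root of the test statistic. Likeness used log2 CPM with a prior count of 2. DESeq2 1.42.0 was an alternative, with no block, other scaling and filters, EC and PG/VG alone, each library left out and, added after seeing the data, no batch 4. The steps were tested on simulated data. Replicates differed by more than sampling noise (chi-square per gene at least 3.88). The text names the 6 genes, the 3 most like each, their nearest tested neighbors, and from each list every gene called and the 3 most abundant, apart from a few that are counted in the lists but not reported here; G6PC1, G6PC2, G6PC3, ligands, further receptors and markers were added for context after their values were seen. The genes and lists were chosen with earlier results of these data known.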

Additional observations from a re-analysis of the deposited data

How the results depend on the processing

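The mean of both condensates vs. control called 4 of the 6 genes in each fit on all 9 libraries that kept the batch, and 3 to 4 with a library left out. This contrast holds the EC libraries that chose the genes, and 6.71% of all genes passed as higher. Nothing is therefore read from these counts or from their stability. The batch test called 4 to 5 with a library left out, and without batch 4 it called 0 of the 6 genes and 0 of all genes in edgeR (0 and 666 with an unadjusted p under 0.05). Without the replicate block, calls fell to 0 of the 6 genes in the mean of both condensates, to 1 gene of all in EC vs. PG/VG in place of 137, to 5 in place of 1928 in the mean, and to 0 of the related genes in place of 2 and 18 (edgeR, with 8 and 17 of them at an unadjusted p under 0.05). In EC vs. PG/VG, 309 genes and 4 related genes were called without the filter, 318 and 5 with EC and PG/VG alone, 80 and 1 without batch 4, and 32 to 208 and 0 to 4 with a library left out (fewest without PG/VG replicate 2, most without control replicate 4). Library size as the only scaling gave 4 related genes, and 145 of 176 calls were then higher in EC, against 89 of 137. For the mean of both condensates it gave 1545 higher of 2064, against 1075 of 1928, and its median over all genes was 0.055. That mean called 1084 genes and 9 related genes without batch 4, and 889 to 2350 and 7 to 19 with a library left out. The batch test called 3926 to 5465 genes with a library left out. The LFC of PSG1 in this mean, 0.08 and not called, turned to −0.18 without control replicate 3, −0.20 without PG/VG replicate 3 and −0.066 without EC replicate 2, and reached 0.333 without PG/VG replicate 2. Depth limits PSG1 and VIPR1 most, with as few as 10 and 27 counts in a library.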
